A study of Homo sapiens with 18 samples.

Results

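Homologous recombination, Fanconi anaemia and DNA damage checkpoint genes were followed through 6 h of THZ1 in 3 human pancreatic ductal adenocarcinoma cell lines. The members are a list of 45 gene symbols, picked by name for their role and with earlier results of these data known. No measured value enters the rule. Of the 45, 44 had a row among the 17026 endogenous genes of the deposited table, and FANCF was not analysed here. All 44 passed the filter on low values that left 15354 genes for testing. THZ1 binds covalently to CDK7, a TFIIH kinase acting on RNA polymerase II, and CDK12 and CDK13 are further targets. The lines were BxPC-3, MiaPaCa-2 and PANC-1, which the labels call human PDAC cell lines. Each was grown in F12 medium with serum, β-glycerophosphate, L-ascorbic acid and antibiotics, seeded in 6-well plates and given either 100 nM THZ1 or the solvent DMSO for 6 h. The 6 groups of line and treatment held 3 libraries each, 18 in all, and the series' design text calls them biological triplicates. Each line is a tumour-derived culture with genetic changes of its own, none of which the labels describe, and a single dose and a single time were measured.

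Homologous recombination repairs a broken chromosome from an intact sister copy. MRN and CtIP resect the ends, RPA coats the exposed strand, the BRCA1, PALB2 and BRCA2 chain loads the recombinase onto it, and helicases and nucleases take the joined molecules apart. The Fanconi anaemia pathway unhooks DNA crosslinks and hands the break to the same machinery, while the kinases ATM and ATR signal damage to CHEK2 and CHEK1. Inherited and somatic mutations of BRCA1, BRCA2, PALB2 and ATM are known in pancreatic cancer, where loss of recombination is linked with sensitivity to platinum drugs and PARP inhibitors.

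The values printed are the deposited values multiplied by 17.6795, so that the mean library summed to 1e+06. They are not corrected for gene length, so levels are compared between samples and not between genes. Changes are THZ1 minus DMSO on the log2(value + 1) scale, which understates the change of low genes, with the standard error from a limma fit across all genes and Benjamini-Hochberg adjusted p. A gene is called where that p is under 0.05, on the deposited scale unless another is named. The 18 libraries held 6352482 to 20910423 reads, and the fewest reads behind any member's value were 18, for RAD52 in a MiaPaCa-2 library. The keratins KRT19, KRT8 and KRT18 and the mucin MUC1, markers of ductal epithelium, were above 1 in each line, but KRT7 and CDH1 lay under 1 in MiaPaCa-2 with DMSO. PANC-1 DMSO replicate 1 stood apart. It was the shallowest library, and its log2 values correlated at 0.951 and 0.942 with those of its 2 group mates, which correlated at 0.996 with each other. It also enters the spread that all groups share, so THZ1 calls of members and other named genes that change without it are given with them. In these bulk samples fewer cells and less RNA per cell cannot be told apart. The scales between libraries were 3, the deposited one, TMM and equal totals of the ERCC spike-in RNA, which the labels say was added to extracted RNA, so that it does not count cells.

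In BxPC-3 17 of the 44 genes fell, against 18.9% of all genes tested, and 13 rose on the deposited scale, against 40% of all genes. In MiaPaCa-2 15 fell, against 19.8% of all genes, and 10 rose, against 36.5%. Each of the 17 and 15 falls was also called on the TMM and ERCC scales, as were 18.9% and 19.8% of all genes. Both of those scales shift the changes of these lines down, so these calls are no separate support. None of the rises was called higher on all 3 scales, where 1.29% and 1.37% of all genes were. The steep falls were shared by both lines. At least 2-fold lower were 8 members in BxPC-3 (6.85% of all genes) and 8 in MiaPaCa-2 (6%), and 7 of these, PALB2, BRCA2, RAD52, XRCC2, BLM, SLX4 and EME1, were in both sets, EXO1 being the eighth in BxPC-3 and BARD1 in MiaPaCa-2. Lower on all 3 scales in both lines were 13 members, namely BRCA1, PALB2, BRCA2, RAD52, RAD51D, XRCC2, EXO1, BLM, FANCM, SLX4, EME1, FANCE and UBE2T, against 12.7% of all genes. In PANC-1 limma called none of the 44 in either direction, where 0.228% of all genes were called lower and 0.274% higher, and 0.0847% and 0.0195% on all 3 scales. At an unadjusted p under 0.05 limma gave 9 members in PANC-1, edgeR 4 and DESeq2 6, with no count over all genes to set beside them. After adjustment edgeR called 0 members and 19 of all genes, and DESeq2 1 member and 691 of all genes. These PANC-1 counts changed when single DMSO libraries were left out. Without DMSO replicate 3, XRCC3, SLX4, FANCE and MDC1 were called lower there (11.3% of all genes) and MRE11A, NBN, FANCL and RPA1 higher (10.5%). Without DMSO replicate 1, 0 were lower (1.35%), and FANCA and RPA1 were higher (5.63%). The plot of each gene's change by role shows these calls side by side.

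**Figure D1:**
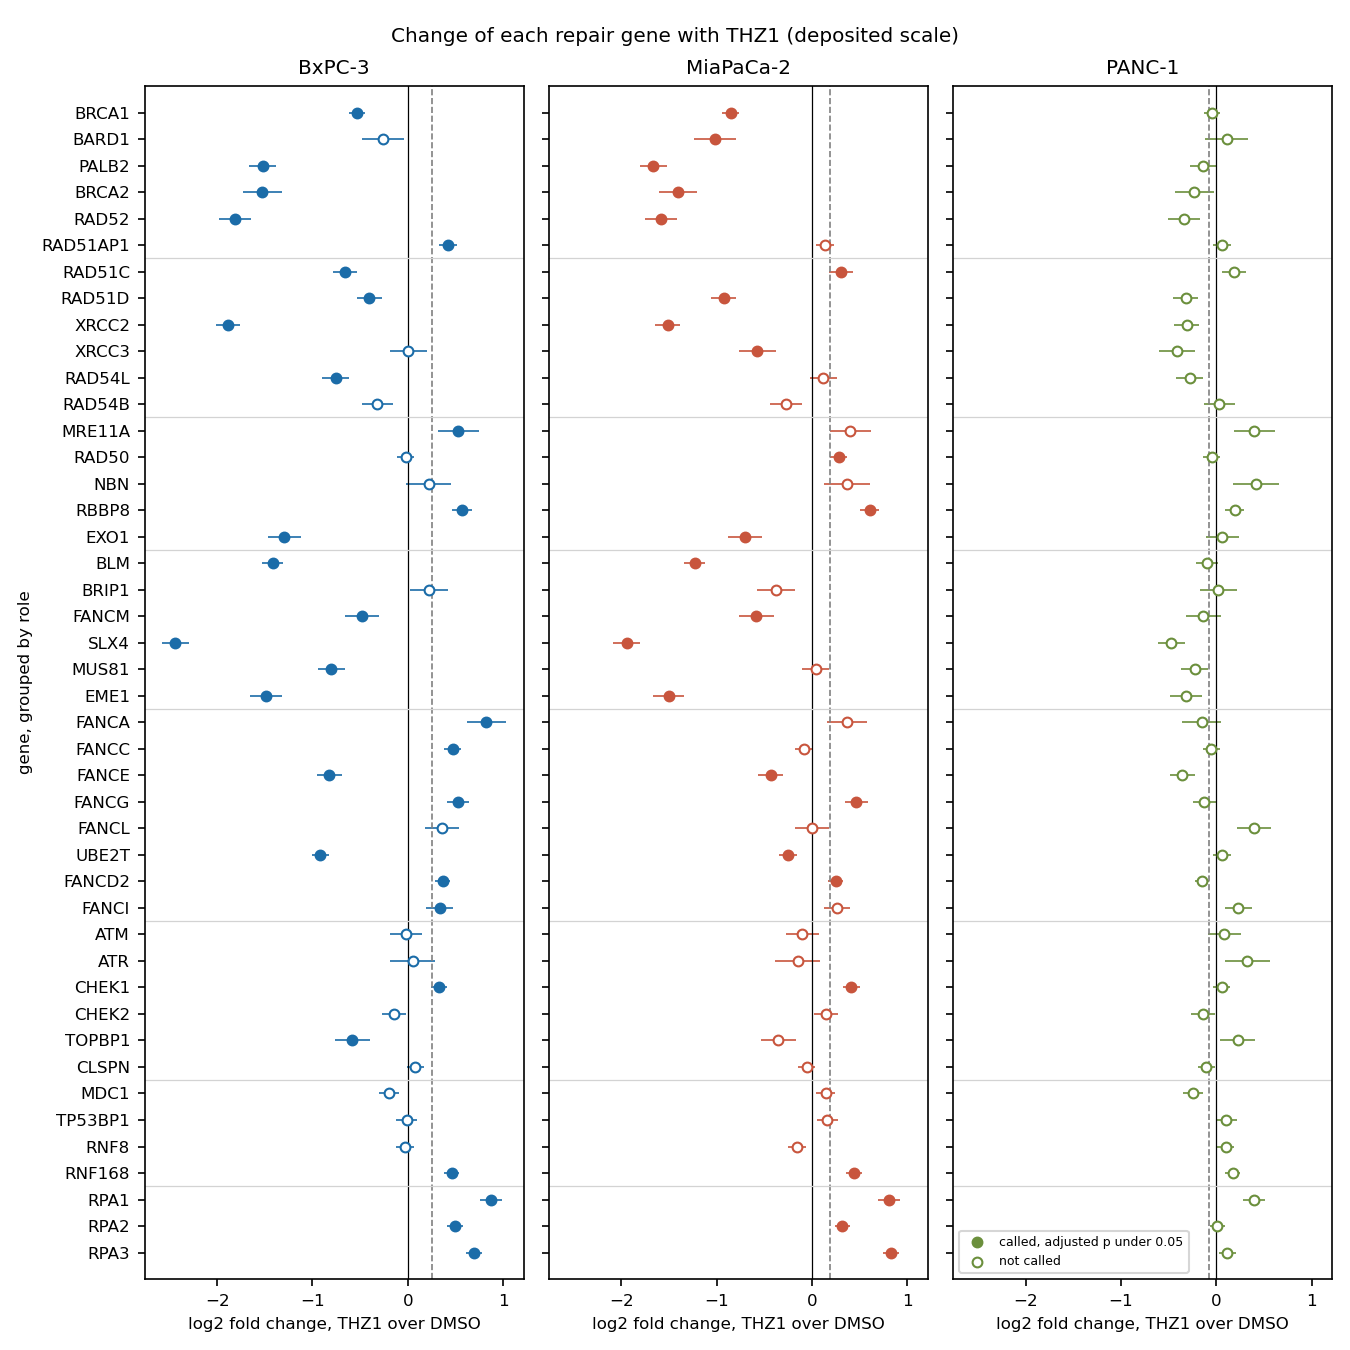
Log2 fold change (THZ1 over DMSO, deposited scale) of the 44 repair genes in BxPC-3, MiaPaCa-2 and PANC-1, 3 libraries per group. Points are estimates and bars the standard error, filled points were called, the dashed line is the median of all genes tested (0.25, 0.19 and -0.07) and grey lines part the roles. The filled points left of zero lie furthest out for SLX4, XRCC2, RAD52, PALB2, BRCA2 and EME1, those right of zero are negative with ERCC totals, and no point of PANC-1 is filled.

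Promoters of 3 genes at least 2-fold lower in both lines, SLX4, XRCC2 and PALB2, are shown with that of RPA1, the member with the highest change in BxPC-3. They were picked for display and do not stand for all steep falls. A reader can compare the regions before the annotated starts. The sequences are the 250 bases before each start, 5′ to 3′ on the gene's strand, from RefSeq on GRCh38.p14. For XRCC2, PALB2 and RPA1 a stretch of the 50 bases after the start was found in a GENCODE v29 transcript of the gene. For SLX4 it was not found, so its positions rest on the RefSeq start alone. Capitals mark matches, on either strand, to 6 letter patterns. The E2F-type pattern was TTTNNCGC and the ETS-type pattern was CCGGAAGT. The GC box was searched as GGGCGG, the CHR element as TTTGAA and the CCAAT box by the letters of its name. The NRF1-type pattern, of 10 letters, is given by name alone, and its matches stand in the capitals close to the starts. None of the patterns contains another.
SLX4, chr16:3611607-3611856, minus strand: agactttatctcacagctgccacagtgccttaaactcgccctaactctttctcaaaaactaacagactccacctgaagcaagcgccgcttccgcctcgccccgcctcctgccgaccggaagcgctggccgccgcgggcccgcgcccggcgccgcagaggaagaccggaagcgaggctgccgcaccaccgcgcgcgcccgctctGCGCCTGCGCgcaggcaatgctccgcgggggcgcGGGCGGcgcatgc
XRCC2, chr7:152676142-152676391, minus strand: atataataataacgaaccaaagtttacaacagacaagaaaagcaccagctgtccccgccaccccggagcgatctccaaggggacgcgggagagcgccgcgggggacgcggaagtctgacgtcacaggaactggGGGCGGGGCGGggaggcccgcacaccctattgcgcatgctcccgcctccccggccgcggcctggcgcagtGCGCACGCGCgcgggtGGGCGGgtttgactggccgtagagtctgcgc
PALB2, chr16:23641311-23641560, minus strand: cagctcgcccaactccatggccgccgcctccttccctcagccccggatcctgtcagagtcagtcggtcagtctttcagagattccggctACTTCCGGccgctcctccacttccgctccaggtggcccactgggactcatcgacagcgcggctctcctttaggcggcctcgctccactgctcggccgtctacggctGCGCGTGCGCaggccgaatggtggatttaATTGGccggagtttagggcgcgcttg
RPA1, chr17:1829755-1830004, plus strand: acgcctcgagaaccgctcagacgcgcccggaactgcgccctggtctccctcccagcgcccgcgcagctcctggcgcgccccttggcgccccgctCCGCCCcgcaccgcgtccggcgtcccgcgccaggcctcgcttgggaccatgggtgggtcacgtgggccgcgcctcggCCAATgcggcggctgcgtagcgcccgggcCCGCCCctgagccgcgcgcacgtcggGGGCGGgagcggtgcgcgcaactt

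The first 3 promoters each hold an NRF1-type match close to the start, with its first base at -47 in SLX4, -47 in XRCC2 and -55 in PALB2, counted back from the base before the start as -1. The RPA1 promoter holds no such match and has GC boxes at -156, -50 and -24 and a CCAAT box at -79. XRCC2 has GC boxes at -117, -112 and -31 and SLX4 has 1 at -13, while PALB2 has an ETS-type match at -161 and a CCAAT box at -26. Over the 300-base windows that also hold 50 bases after the start, the NRF1-type pattern occurs in 5.78% of all 35116 promoters and in 7 of the 38 members with an entry. Among the 13 genes lower in both lines it occurs in PALB2, XRCC2, SLX4 and UBE2T, and among the 6 genes with an entry that read higher in both lines on the deposited scale it occurs in none. RAD52, BRCA2, BLM and EME1, also at least 2-fold lower in both lines, have an entry without the pattern. It occurs in ATM, RAD51AP1 and FANCA, which did not fall in either line on the deposited scale. GC boxes occur in 31 of the 38 and in 44.95% of all promoters, E2F-type matches in 8 and in 6.89%, and ETS-type matches in 6 and in 4.14%. CCAAT boxes occur in 18 of the 38 and in 34.6% of all promoters, and CHR elements in 5 and in 15.2%. These are matches of letters only.

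Of the 6 genes of the BRCA complex and its mediators, BRCA1, BRCA2, PALB2 and RAD52 fell in both lines, BARD1 fell in MiaPaCa-2, and RAD51AP1 rose in BxPC-3 on the deposited scale. Over all genes 18.9% fell in BxPC-3 and 19.8% in MiaPaCa-2. BRCA2, which loads the recombinase onto resected DNA, read 39.2, 28.8 and 30.2 with DMSO and 10.7, 10.9 and 10.2 with THZ1 in BxPC-3. In MiaPaCa-2 it read 37.5, 43.9 and 44.1 with DMSO and 11.4, 18.9 and 16.1 with THZ1. The groups do not overlap in either line, and the changes were -1.53 ± 0.20 (SE) (adjusted p = 7.08e-06) and -1.40 ± 0.20 (SE) (adjusted p = 2.01e-05), so that 32.4% and 36.96% of the DMSO mean was left. PANC-1 libraries read 24.5, 23.04 and 35.99 with DMSO and 18.02, 30.1 and 22.8 with THZ1, with overlapping groups and a change of -0.23 ± 0.20 (SE) (adjusted p = 0.479).

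PALB2, the bridge between BRCA1 and BRCA2, read 25.5, 28.9 and 26.1 with DMSO and 7.71, 9.29 and 9.12 with THZ1 in BxPC-3 and 16.9, 18.3 and 20.1 with DMSO and 5.405, 5.18 and 4.74 with THZ1 in MiaPaCa-2. Every THZ1 library lay below every DMSO library, with changes of -1.52 ± 0.14 (SE) (adjusted p = 1.49e-07) and -1.67 ± 0.14 (SE) (adjusted p = 8.03e-08). In PANC-1 the values were 13.3, 19.2 and 20.5 with DMSO and 17.3, 16.6 and 13.5 with THZ1, which overlap (change -0.14 ± 0.14 (SE), adjusted p = 0.549).

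RAD52, an annealing protein that can partly stand in for BRCA2, read 13.7, 13.8 and 12.4 with DMSO and 3.19, 4.19 and 2.099 with THZ1 in BxPC-3 and 9.47, 8.84 and 9.31 with DMSO and 2.56, 2.86 and 1.89 with THZ1 in MiaPaCa-2. It was a low gene, with as few as 26 reads in a BxPC-3 library and 18 in a MiaPaCa-2 library, yet the groups lay well apart, at -1.81 ± 0.17 (SE) (adjusted p = 1.44e-07) and -1.58 ± 0.17 (SE) (adjusted p = 8.76e-07). In PANC-1 it read 9.31, 10.9 and 9.53 with DMSO and 9.21, 6.46 and 7.34 with THZ1, with the THZ1 libraries below the DMSO libraries and no call (-0.34 ± 0.17 (SE), adjusted p = 0.24).

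BRCA1, the ubiquitin ligase that favours recombination over end joining, fell in the same lines. It read 72.7, 67.2 and 65.1 with DMSO and 44.5, 48.3 and 48.2 with THZ1 in BxPC-3 (-0.53 ± 0.08 (SE), adjusted p = 4.89e-05) and 75.4, 75.8 and 79.7 with DMSO and 41.1, 40.98 and 44.3 with THZ1 in MiaPaCa-2 (-0.85 ± 0.08 (SE), adjusted p = 3.81e-07). No THZ1 library of these lines reached a DMSO library, whereas in PANC-1 the values of 55.2, 62.7 and 65.5 with DMSO and 56.1, 64.8 and 56.4 with THZ1 overlap (-0.05 ± 0.08 (SE), adjusted p = 0.725). BARD1, the obligate partner of BRCA1, fell in MiaPaCa-2 from 24.9 ± 1.38 (SD, n = 3) to 12.1 ± 3.07 (SD, n = 3), a change of -1.01 ± 0.22 (SE), and had -0.26 ± 0.22 (SE) in BxPC-3 without a call (adjusted p = 0.329). The difference of these 2 BARD1 responses was not called (-0.75 ± 0.31 (SE), adjusted p = 0.129), but it was without PANC-1 DMSO replicate 1 (adjusted p = 0.00498). RAD51AP1, which helps the recombinase pair strands, read higher in BxPC-3 on the deposited scale (0.42) and lower with ERCC totals (-0.73), and its changes in MiaPaCa-2 and PANC-1 were 0.13 and 0.06 without a call. Reads from the BRCA1, CHEK2 and FANCD2 pseudogenes may have been counted with those genes, and how the counting treated them is not given in the sources used here.

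Among the recombinase paralogues and the RAD54 translocases, which stabilise and move the recombinase filament, 4 of 6 fell in BxPC-3, and 3 fell and 1 rose in MiaPaCa-2. Of all genes 18.9% fell in BxPC-3, and 19.8% fell and 36.5% rose in MiaPaCa-2. XRCC2 was the steepest of the 6. Its values were 21.2, 15.97 and 17.6 with DMSO and 4.75, 3.95 and 3.87 with THZ1 in BxPC-3 and 74.5, 77.6 and 73.3 with DMSO and 24.5, 23.8 and 28.9 with THZ1 in MiaPaCa-2, with changes of -1.89 ± 0.13 (SE) (adjusted p = 4.3e-09) and -1.51 ± 0.13 (SE) (adjusted p = 7.61e-08). After THZ1 the MiaPaCa-2 libraries, at 25.7 on average, still read above the DMSO libraries of BxPC-3 at 18.3 on the deposited scale. PANC-1 read 40.9, 30.3 and 32.8 with DMSO and 24.9, 30.3 and 27.6 with THZ1, with the groups meeting at their edges and a change of -0.31 ± 0.13 (SE) (adjusted p = 0.188).

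RAD51C, which sits in both paralogue complexes, went opposite ways in the 2 lines on the deposited scale, though its MiaPaCa-2 call was lost with the replicate number as a block. In BxPC-3 it fell from 16.8, 15.1 and 14.3 to 8.57, 9.87 and 9.77 (-0.65 ± 0.13 (SE), adjusted p = 0.00029). In MiaPaCa-2 it read 22.1, 20.97 and 22.2 with DMSO and 28.03, 25.4 and 28.1 with THZ1, higher on the deposited scale (0.31 ± 0.13 (SE), adjusted p = 0.0454), near zero with TMM (0.08) and lower with ERCC totals (-0.93). PANC-1 had the lowest RAD51C, at 5.37, 8.23 and 6.12 with DMSO and 8.005, 6.66 and 7.98 with THZ1, with overlapping groups (0.19 ± 0.13 (SE)). RAD51D, the partner of XRCC2, fell from 7.09 ± 0.594 (SD, n = 3) to 5.11 ± 0.457 (SD, n = 3) in BxPC-3 and from 7.96 ± 0.377 (SD, n = 3) to 3.77 ± 0.921 (SD, n = 3) in MiaPaCa-2, changes of -0.40 and -0.93. XRCC3, the partner of RAD51C, was at 0.01 in BxPC-3 and fell in MiaPaCa-2 (-0.57 ± 0.19 (SE), adjusted p = 0.0177). RAD54L, the translocase that drives strand exchange, fell in BxPC-3 (-0.76 ± 0.14 (SE), adjusted p = 0.000248) and was at 0.12 ± 0.14 (SE) in MiaPaCa-2 (adjusted p = 0.51). Its relative RAD54B read 3.16 to 6.12 over the 18 libraries, with -0.32, -0.27 and 0.03 and no call on the deposited scale. TMM called RAD54B lower in BxPC-3 (-0.63, adjusted p = 0.00888) and MiaPaCa-2 (-0.46, adjusted p = 0.0469), as did ERCC totals (-1.22 and -1.32).

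The resection genes split. EXO1, the exonuclease of long-range resection, fell from 31.3, 26.3 and 26.7 to 11.4, 9.87 and 11.3 in BxPC-3 (-1.30 ± 0.18 (SE), adjusted p = 9.13e-06) and from 58.7, 58.5 and 60.3 to 33.7, 35.8 and 38.4 in MiaPaCa-2 (-0.70 ± 0.18 (SE), adjusted p = 0.00267). The groups lie apart in both lines. RBBP8, which encodes CtIP, the cofactor that starts resection, went the other way on the deposited scale and not on the ERCC scale. It read 67.97, 68.3 and 62.02 with DMSO and 95.1, 99.2 and 101.3 with THZ1 in BxPC-3 and 36.2, 37.1 and 37.1 with DMSO and 52.03, 57.9 and 60.1 with THZ1 in MiaPaCa-2, with 0.57 ± 0.10 (SE) (adjusted p = 0.000133) and 0.61 ± 0.10 (SE) (adjusted p = 8.41e-05), against -0.61 and -0.66 with ERCC totals. In PANC-1 it read 48.8, 60.04 and 63.03 with DMSO and 59.4, 73.9 and 63.7 with THZ1, with overlap (0.20 ± 0.10 (SE)). Of the MRN nuclease complex, MRE11A was higher in BxPC-3 (0.53, adjusted p = 0.0418) and RAD50 in MiaPaCa-2 (0.28, adjusted p = 0.0136) on the deposited scale, and both read lower with ERCC totals (-0.63 and -1.01). MRE11A in MiaPaCa-2 was at 0.40 (adjusted p = 0.121, or 0.00198 without PANC-1 DMSO replicate 1). NBN, the third subunit, had 0.22, 0.37 and 0.42 and no call. PANC-1 DMSO replicate 1 read 22.7 for NBN against up to 62.3 in its group mates. Without it NBN was called higher in BxPC-3 (adjusted p = 0.0181) and MiaPaCa-2 (adjusted p = 0.000324), and its PANC-1 change was -0.02.

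Of the 6 helicases and structure-specific nucleases 5 fell in BxPC-3, against 18.9% of all genes, and 4 in MiaPaCa-2, against 19.8%. SLX4 had the lowest change of the 44 members in both lines. SLX4, the scaffold that holds the nucleases which cut joined and crosslinked DNA, read 21.9, 22.1 and 23.1 with DMSO and 3.19, 3.12 and 3.63 with THZ1 in BxPC-3. In MiaPaCa-2 it read 25.1, 23.2 and 22.7 with DMSO and 5.68, 6.16 and 4.53 with THZ1. These groups are far apart, with 14.8% and 23.03% of the DMSO mean left, changes of -2.44 ± 0.14 (SE) (adjusted p = 1.06e-09) and -1.94 ± 0.14 (SE) (adjusted p = 1.65e-08), and rank 36 and 62 from the lowest of the 15354 genes. PANC-1 started from a higher level of 88.4, 58.1 and 57.9 with DMSO and 52.3, 46.2 and 45.3 with THZ1. All 3 THZ1 libraries lay below the DMSO libraries there, but replicate 1 of DMSO was far above its mates, and the change of -0.47 ± 0.14 (SE) (adjusted p = 0.107) was -0.27 without it (adjusted p = 0.123).

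BLM, the helicase of Bloom syndrome that dissolves crossed-over strands, read 40.4, 37.9 and 36.6 with DMSO and 14.3, 13.2 and 13.6 with THZ1 in BxPC-3 and 30.02, 30.02 and 28.1 with DMSO and 11.6, 13.2 and 11.05 with THZ1 in MiaPaCa-2. The groups did not overlap, with -1.41 ± 0.11 (SE) (adjusted p = 1.99e-08) and -1.23 ± 0.11 (SE) (adjusted p = 1.4e-07), whereas the PANC-1 values of 30.8, 38.99 and 41.2 with DMSO and 31.96, 38.9 and 32.4 with THZ1 did overlap (-0.10 ± 0.11 (SE), adjusted p = 0.588). EME1, a partner of MUS81 in an active nuclease, fell from 8.002 ± 0.205 (SD, n = 3) to 2.22 ± 0.326 (SD, n = 3) in BxPC-3 and from 11.3 ± 0.512 (SD, n = 3) to 3.46 ± 1.41 (SD, n = 3) in MiaPaCa-2 (-1.49 and -1.50). MUS81 itself fell in BxPC-3 (-0.80 ± 0.14 (SE), adjusted p = 0.000159) and was at 0.04 ± 0.14 (SE) in MiaPaCa-2, where its values of 25.2, 24.8 and 22.9 with DMSO and 27.7, 24.6 and 22.9 with THZ1 overlap. FANCM, a translocase that recognises stalled forks, fell in both lines by smaller amounts (-0.48, adjusted p = 0.0319, and -0.58, adjusted p = 0.012). BRIP1, the helicase bound to BRCA1, was at 0.22, -0.38 and 0.02 with no call, though the MiaPaCa-2 change was called without PANC-1 DMSO replicate 1 (adjusted p = 0.00342). The plot of values by library shows 6 of the falling genes with ATM and RPA1.

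**Figure D2:**
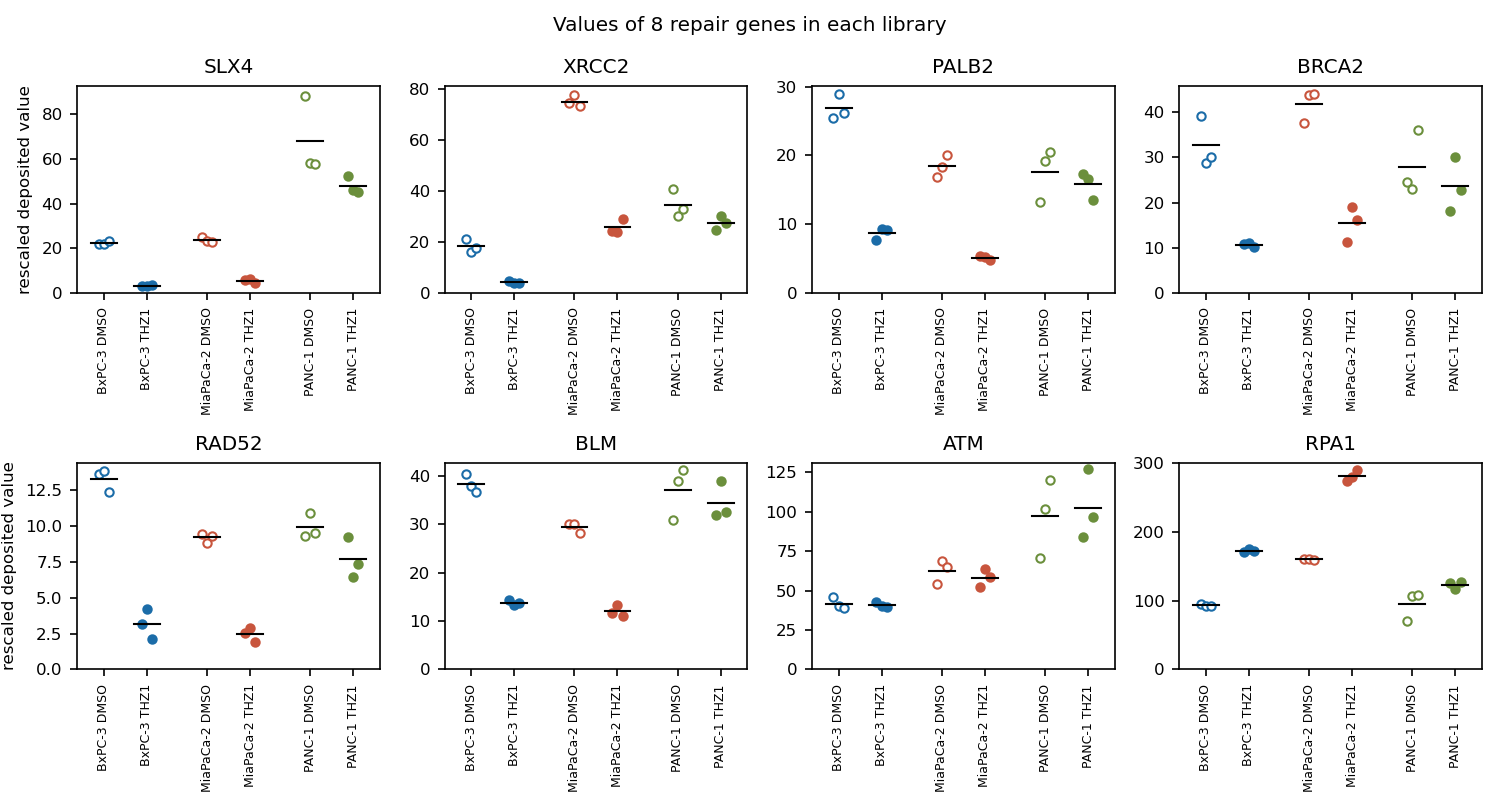
Rescaled deposited value (linear axis from 0, parts of the mean library of 1e+06) of 8 repair genes in each of the 18 libraries, open points DMSO, filled points THZ1 and bars the mean of 3. For SLX4, XRCC2, PALB2, BRCA2, RAD52 and BLM every THZ1 library of BxPC-3 and MiaPaCa-2 lies below every DMSO library, for ATM the groups overlap in each line, and for RPA1 the THZ1 libraries lie above on this scale, a direction that turns with ERCC totals in those 2 lines.

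Of the 8 genes of the Fanconi anaemia core and its ubiquitin step 2 fell and 5 rose in BxPC-3, and 2 fell and 2 rose in MiaPaCa-2, all rises being on the deposited scale. Of all genes 18.9% fell and 40% rose in BxPC-3, and 19.8% fell and 36.5% rose in MiaPaCa-2, so the 2 falls in each line were near those shares. UBE2T, the conjugating enzyme that hands ubiquitin to FANCD2 and FANCI, fell from 24.5, 24.9 and 24.6 to 11.9, 12.7 and 13.1 in BxPC-3 (-0.92 ± 0.09 (SE), adjusted p = 2.95e-07). In MiaPaCa-2 it read 25.2, 25.3 and 23.3 with DMSO and 20.4, 22.4 and 18.8 with THZ1, a smaller fall of -0.25 ± 0.09 (SE) (adjusted p = 0.0281). FANCE, the core subunit that binds FANCD2, fell to 54.03% of its DMSO mean in BxPC-3 and to 72.1% in MiaPaCa-2 (-0.82 and -0.43). FANCA, a scaffold of the core complex, read 98.7, 101.1 and 99.3 with DMSO and 176, 179 and 178 with THZ1 in BxPC-3, narrow groups that lie far apart, with 0.83 ± 0.21 (SE) on the deposited scale (adjusted p = 0.00274), 0.44 with TMM and -0.36 with ERCC totals. In MiaPaCa-2 FANCA read 92.9, 97.5 and 94.3 with DMSO and 128, 122 and 118 with THZ1, also apart, but its change of 0.37 ± 0.21 (SE) was not called (adjusted p = 0.144). The standard error there comes from the spread in all groups, and in PANC-1 with DMSO FANCA read 107, 47.4 and 46.2. Without that first library the MiaPaCa-2 change of FANCA was called (adjusted p = 4.92e-06), and the PANC-1 change turned from -0.15 to 0.24 (adjusted p = 0.0258). FANCG, another core subunit, and FANCD2, whose ubiquitination marks the pathway as active, were higher in both lines on the deposited scale (0.53 and 0.47, 0.37 and 0.25) and lower with ERCC totals (-0.65 and -0.80, -0.80 and -1.01). FANCI, the partner of FANCD2, and FANCC were called higher in BxPC-3 only on that scale (0.33 and 0.47), with 0.26 and -0.08 in MiaPaCa-2, where FANCI was called higher without PANC-1 DMSO replicate 1 (adjusted p = 0.000186). FANCL, the ubiquitin ligase of the core, was at 0.36, 0.00 and 0.40 with no call. Without the same library FANCL was called higher in BxPC-3 (adjusted p = 0.00163) and its PANC-1 change was 0.11.

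The kinases at the top of the checkpoint did not pass the test in any line. ATM, the kinase of broken ends, read 45.8, 40.1 and 39.04 with DMSO and 42.9, 40.3 and 39.8 with THZ1 in BxPC-3 and 54.01, 68.6 and 65.1 with DMSO and 52.2, 63.9 and 58.4 with THZ1 in MiaPaCa-2. The groups overlap in both, with -0.02 ± 0.17 (SE) (adjusted p = 0.931) and -0.10 ± 0.17 (SE) (adjusted p = 0.647). In PANC-1 ATM read 70.4, 102 and 120.5 with DMSO and 83.96, 127 and 96.8 with THZ1, a wide spread in both groups (0.08 ± 0.17 (SE), adjusted p = 0.763). ATR, the kinase of single-stranded DNA, read 65.2, 58.3 and 59.3 with DMSO and 67.2, 61.3 and 60.9 with THZ1 in BxPC-3, 67.7, 79.2 and 81.1 with DMSO and 66.1, 70.2 and 68.5 with THZ1 in MiaPaCa-2 and 24.6, 55.3 and 66.1 with DMSO and 48.5, 68.4 and 54.8 with THZ1 in PANC-1. Its groups overlap in every line, at 0.05 ± 0.24 (SE), -0.15 ± 0.24 (SE) and 0.33 ± 0.24 (SE), with adjusted p of 0.868, 0.625 and 0.392. On the ERCC scale both kinases were called lower in BxPC-3 (-1.18 and -1.12) and MiaPaCa-2 (-1.37 and -1.42), where the median of all genes was -0.64 and -0.85.

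CHEK1, the effector kinase of ATR, read 50.8, 51.4 and 50.2 with DMSO and 67.4, 59.6 and 65.5 with THZ1 in BxPC-3 and 33.2, 30.1 and 31.9 with DMSO and 44.5, 40.2 and 43.04 with THZ1 in MiaPaCa-2. The THZ1 libraries lay above on the deposited scale, at 0.33 ± 0.09 (SE) (adjusted p = 0.00399) and 0.41 ± 0.09 (SE) (adjusted p = 0.000797), but only 0.08 and 0.22 above the median of all genes, and TMM gave -0.05 and 0.18 and ERCC totals -0.84 and -0.85. In PANC-1 it read 52.7, 56.6 and 65.7 with DMSO and 57.5, 59.7 and 64.3 with THZ1, with overlap (0.06 ± 0.09 (SE)). TOPBP1, an activator of ATR, fell in BxPC-3 from 87.1 ± 3.996 (SD, n = 3) to 57.9 ± 3.33 (SD, n = 3) (-0.58 ± 0.18 (SE), adjusted p = 0.0124). Its MiaPaCa-2 libraries read 161, 167 and 163 with DMSO and 123, 131 and 129 with THZ1, apart and without a call (-0.36 ± 0.18 (SE), adjusted p = 0.112, or 2.79e-05 without PANC-1 DMSO replicate 1). CLSPN, the adaptor that brings CHEK1 to ATR, and CHEK2, the effector of ATM, had changes between -0.14 and 0.15 in the 3 lines with no call.

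The chromatin adaptors MDC1, TP53BP1 and RNF8, which spread and read the ubiquitin mark around a break, were not called in any line on the deposited scale. TMM called RNF8 lower in BxPC-3 (-0.40, adjusted p = 0.00767) and MiaPaCa-2 (-0.39, adjusted p = 0.0099), and MDC1 lower in BxPC-3 (-0.58, adjusted p = 1.56e-05). ERCC totals called all of them lower in both lines, at -1.36 and -1.13 for MDC1, -1.18 and -1.12 for TP53BP1 and -1.17 and -1.40 for RNF8. MDC1 read 47.2, 49.99 and 48.4 with DMSO and 42.9, 45.6 and 38.3 with THZ1 in BxPC-3 (-0.20), 60.7, 55.8 and 54.2 with DMSO and 62.1, 61.7 and 64.8 with THZ1 in MiaPaCa-2 (0.14) and 159, 119 and 115 with DMSO and 112, 109.8 and 106 with THZ1 in PANC-1 (-0.24). In BxPC-3 and PANC-1 its THZ1 libraries lay below the DMSO libraries and in MiaPaCa-2 above them, without a call. Without PANC-1 DMSO replicate 1 MDC1 was called lower in BxPC-3 (adjusted p = 0.00715) and higher in MiaPaCa-2 (adjusted p = 0.0458), and TP53BP1 was called higher in MiaPaCa-2 (0.16, adjusted p = 0.0119). RNF168, the ligase that extends the mark RNF8 begins, was called higher in BxPC-3 (0.46 ± 0.08 (SE)) and MiaPaCa-2 (0.44 ± 0.08 (SE)) on the deposited scale and lower with ERCC totals (-0.69 and -0.82).

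All 3 subunits of RPA, the trimer that coats single-stranded DNA, rose in both lines on the deposited scale and were negative with ERCC totals. On the deposited scale 40% of all genes rose in BxPC-3 and 36.5% in MiaPaCa-2. RPA1 read 95.7, 92.8 and 91.6 with DMSO and 171, 174 and 171 with THZ1 in BxPC-3 and 160.3, 161 and 159.6 with DMSO and 274, 279 and 289.8 with THZ1 in MiaPaCa-2. The groups were narrow and far apart, with 0.88 ± 0.12 (SE) (adjusted p = 6.89e-06) and 0.80 ± 0.12 (SE) (adjusted p = 2e-05), and TMM kept the call (0.49 and 0.57) while ERCC totals turned the sign (-0.31 and -0.48). RPA3 read 22.9, 23.4 and 23.5 with DMSO and 41.1, 38.4 and 35.6 with THZ1 in BxPC-3 and 19.01, 16.7 and 18.6 with DMSO and 31.1, 33.3 and 34.3 with THZ1 in MiaPaCa-2, with 0.70 ± 0.09 (SE) (adjusted p = 3.13e-06) and 0.83 ± 0.09 (SE) (adjusted p = 5.87e-07), and it too was called higher with TMM (0.32 and 0.60) and lower with ERCC totals (-0.46 and -0.41). RPA2 rose less, at 0.50 and 0.32, with -0.68 and -0.95 with ERCC totals. In PANC-1 RPA1 read 70.4, 106 and 107 with DMSO and 126, 117 and 127 with THZ1. All THZ1 libraries there lay above the DMSO libraries, the change of 0.40 ± 0.12 (SE) was not called (adjusted p = 0.101), and without DMSO replicate 1 it was 0.20 and called (adjusted p = 0.0205). RPA3 in PANC-1 read 25.4, 24.5 and 22.6 with DMSO and 24.6, 27.1 and 27.2 with THZ1, with overlap (0.12 ± 0.09 (SE)).

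How far these directions depend on the scale is seen in the plot of the 3 scales. In BxPC-3 the members' calls were 17 lower and 13 higher on the deposited scale. TMM gave 24 lower, against 30% of all genes, and 3 higher, against 22.4%, and ERCC totals gave 41 lower, against 59.1%, and 0 higher, against 1.28%. In MiaPaCa-2 the 15 lower and 10 higher became 19 lower (26.6% of all genes) and 3 higher (24.8%) with TMM, and 44 lower (73.9%) and 0 higher (1.36%) with ERCC totals. PANC-1 gave 0 and 0 with TMM (0.0982% and 0.0458% of all genes), and 10 lower with ERCC totals, a share near the 18.4% of all genes, and 0 higher (0.0323%). The median change over the members was -0.02, -0.40 and -1.19 on the 3 scales in BxPC-3, beside 0.25, -0.04 and -0.64 over all genes. In MiaPaCa-2 it was -0.07, -0.30 and -1.32 beside 0.19, -0.0014 and -0.85, and in PANC-1 -0.02, 0.08 and -0.30 beside -0.07, 0.01 and -0.31. Set against all genes on the deposited scale, 30 of the 44 members lay below the median in BxPC-3, 30 in MiaPaCa-2 and 19 in PANC-1. Leaving out PANC-1 DMSO replicate 1 raised the calls of members and of all genes. It gave 18 lower (24% of all genes) and 15 higher (49.8%) in BxPC-3, and 17 lower (25.4%) and 16 higher (46.6%) in MiaPaCa-2.

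**Figure D3:**
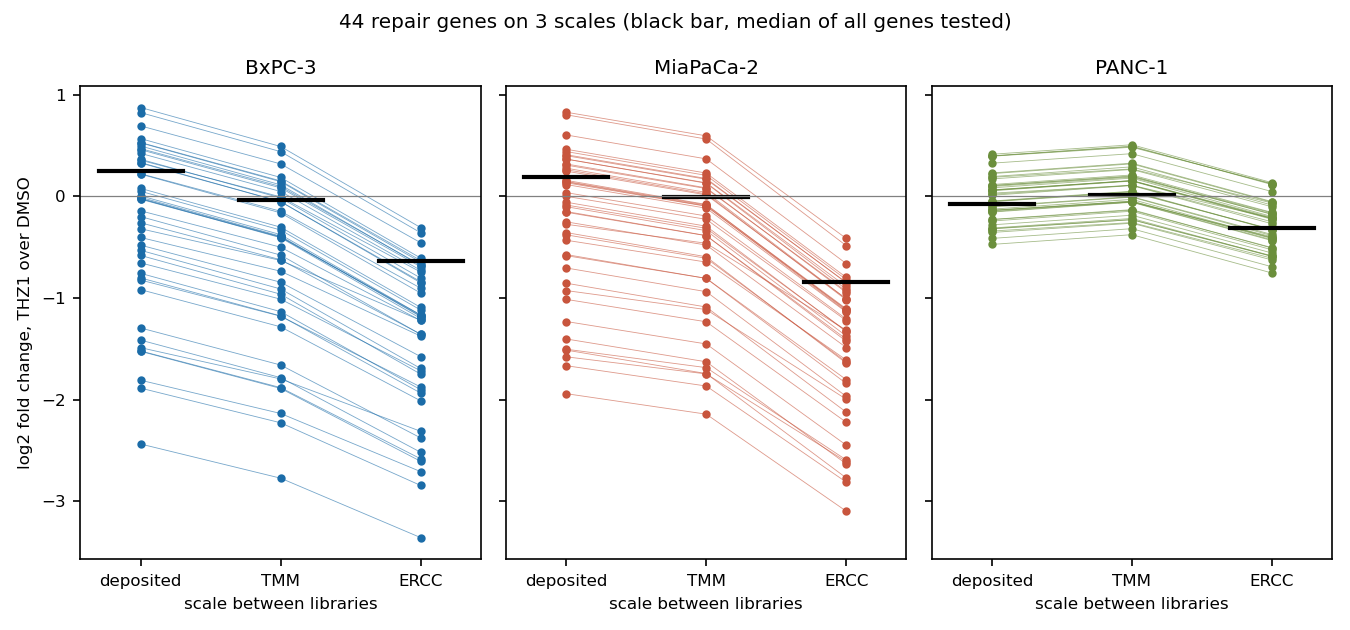
Log2 fold change (THZ1 over DMSO) of each of the 44 repair genes on the deposited, TMM and ERCC scales, 1 line per gene, by cell line, with the median of all genes tested as a black bar. In BxPC-3 and MiaPaCa-2 the genes shift down together from left to right, and every MiaPaCa-2 gene lies below zero with ERCC totals, from -3.10 to -0.41.

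The differences between lines were tested directly. The response differed between the 3 lines for 24 of the 44 genes (F-test in the same limma fit), against 50.6% of all genes, and for 36 without PANC-1 DMSO replicate 1, against 70.3%. The PANC-1 response differed from that of BxPC-3 for 22 members (42.7% of all genes) and from that of MiaPaCa-2 for 18 (38.9%). These contrasts share the PANC-1 libraries, so they are not independent of each other. SLX4, XRCC2 and BLM had the smallest F-test p (adjusted p = 5.18e-06, 1.38e-05 and 1.32e-05). The SLX4 response was higher in PANC-1 than in BxPC-3 by 1.97 ± 0.20 (SE) and than in MiaPaCa-2 by 1.47 ± 0.20 (SE). For XRCC2 these differences were 1.58 ± 0.18 (SE) and 1.20 ± 0.18 (SE), and for BLM 1.32 ± 0.16 (SE) and 1.14 ± 0.16 (SE). BRCA2 and PALB2 differed in the same sense, by 1.30 and 1.18 and by 1.39 and 1.53. The RPA subunits had the opposite difference on the deposited scale. RPA3 was at -0.58 ± 0.12 (SE) against BxPC-3 and -0.71 ± 0.12 (SE) against MiaPaCa-2, and RPA2 at -0.49 and -0.31, all called. RPA1 was called against BxPC-3 (-0.48, adjusted p = 0.0271) and not against MiaPaCa-2 (-0.40, adjusted p = 0.06). With ERCC totals the median change of the RPA subunits was -0.46 in BxPC-3, -0.48 in MiaPaCa-2 and -0.16 in PANC-1. There PANC-1 had the higher response, so the direction of this difference depends on the scale.

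BxPC-3 and MiaPaCa-2 differed for 5 members, against 13.8% of all genes. RAD51C (0.96 ± 0.18 (SE), adjusted p = 0.00169), RAD54L (0.87 ± 0.20 (SE), adjusted p = 0.00799), MUS81 (0.84 ± 0.20 (SE), adjusted p = 0.0109) and UBE2T (0.67 ± 0.13 (SE), adjusted p = 0.00234) had the lower response in BxPC-3. FANCC was the reverse (-0.56 ± 0.13 (SE), adjusted p = 0.00754), with 24.3, 22.7 and 22.9 with DMSO and 31.2, 33.5 and 33.3 with THZ1 in BxPC-3 and 23.9, 22.3 and 25.3 with DMSO and 23.7, 21.6 and 21.9 with THZ1 in MiaPaCa-2. On the ERCC scale MUS81 alone of the 5 kept its call (0.73, adjusted p = 0.034), while RAD54L was at 0.77 (adjusted p = 0.05002), RAD51C at 0.78 (adjusted p = 0.0626), UBE2T at 0.52 (adjusted p = 0.211) and FANCC at -0.65 (adjusted p = 0.125). That 1 member compares with 7.78% of all genes. The count was 8 with TMM (14.1% of all genes) and 18 without PANC-1 DMSO replicate 1 (35.7%). Across the 44 members the changes of BxPC-3 and MiaPaCa-2 had Pearson's r = 0.87 and Spearman's rho = 0.82, and over all genes 0.77 and 0.77, given as a description across genes, which are not independent. The sign was the same for 32 of the 44 and, a larger share, for 12367 of the 15354 genes tested. The plot of BxPC-3 against MiaPaCa-2 marks the 5 genes.

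**Figure D4:**
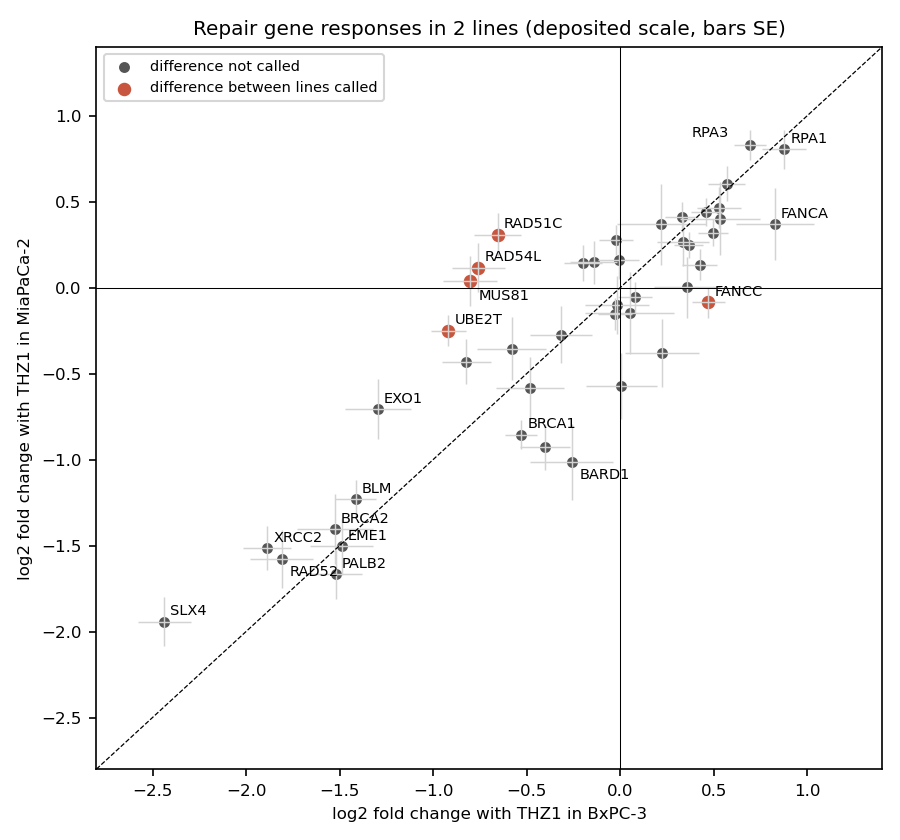
Log2 fold change with THZ1 in MiaPaCa-2 (vertical) against BxPC-3 (horizontal) for the 44 repair genes on the deposited scale, bars the standard error, dashed line equality, red points the 5 genes whose difference between these lines was called. RAD51C, RAD54L, MUS81 and UBE2T lie above the dashed line and FANCC below it, while SLX4 lies lowest on both axes.

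Before treatment the members' levels already differed between lines. The F-test over the 3 DMSO groups called 40 of the 44, against 79.1% of all genes, and 43 without PANC-1 DMSO replicate 1, against 88.8%. The mean was highest in MiaPaCa-2 for 17 members, in BxPC-3 for 14 and in PANC-1 for 13, and the highest line read 1.07 to 4.11 times the lowest. XRCC2 had the widest range, at 18.3 ± 2.69 (SD, n = 3) in BxPC-3, 34.7 ± 5.53 (SD, n = 3) in PANC-1 and 75.1 ± 2.22 (SD, n = 3) in MiaPaCa-2, each step being called (adjusted p = 1.43e-05 and 1.22e-06). RAD51C ran from 6.57 ± 1.48 (SD, n = 3) in PANC-1 through 15.4 ± 1.28 (SD, n = 3) in BxPC-3 to 21.7 ± 0.668 (SD, n = 3) in MiaPaCa-2, each step called as well (adjusted p = 6.85e-07 and 0.00328). MDC1 and SLX4 were high in PANC-1, at 131 ± 24.2 (SD, n = 3) and 68.1 ± 17.6 (SD, n = 3). The difference between BxPC-3 and MiaPaCa-2 was not called for either, with adjusted p of 0.0701 for MDC1 and 0.654 for SLX4. For MDC1 these groups did not overlap, at 47.2, 49.99 and 48.4 in BxPC-3 and 60.7, 55.8 and 54.2 in MiaPaCa-2. The standard error of that test also holds the spread of PANC-1. MUS81 was also highest in PANC-1, at 86.7 ± 25.6 (SD, n = 3), against 39.2 ± 1.61 (SD, n = 3) in BxPC-3 and 24.3 ± 1.23 (SD, n = 3) in MiaPaCa-2, and its PANC-1 spread came from replicate 1 at 116. ATM read 41.6 ± 3.66 (SD, n = 3) in BxPC-3, 62.6 ± 7.61 (SD, n = 3) in MiaPaCa-2 and 97.5 ± 25.3 (SD, n = 3) in PANC-1, and both steps were called (adjusted p = 0.00784 and 0.00569). BRCA1 was within a narrow range, at 61.2 ± 5.29 (SD, n = 3) in PANC-1, 68.3 ± 3.89 (SD, n = 3) in BxPC-3 and 76.96 ± 2.41 (SD, n = 3) in MiaPaCa-2, where only the difference of the outer pair was called (adjusted p = 0.00278). RAD54B, MRE11A, FANCE and FANCL were not called (adjusted p = 0.854, 0.0689, 0.0806 and 0.0512).

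**Figure D5:**
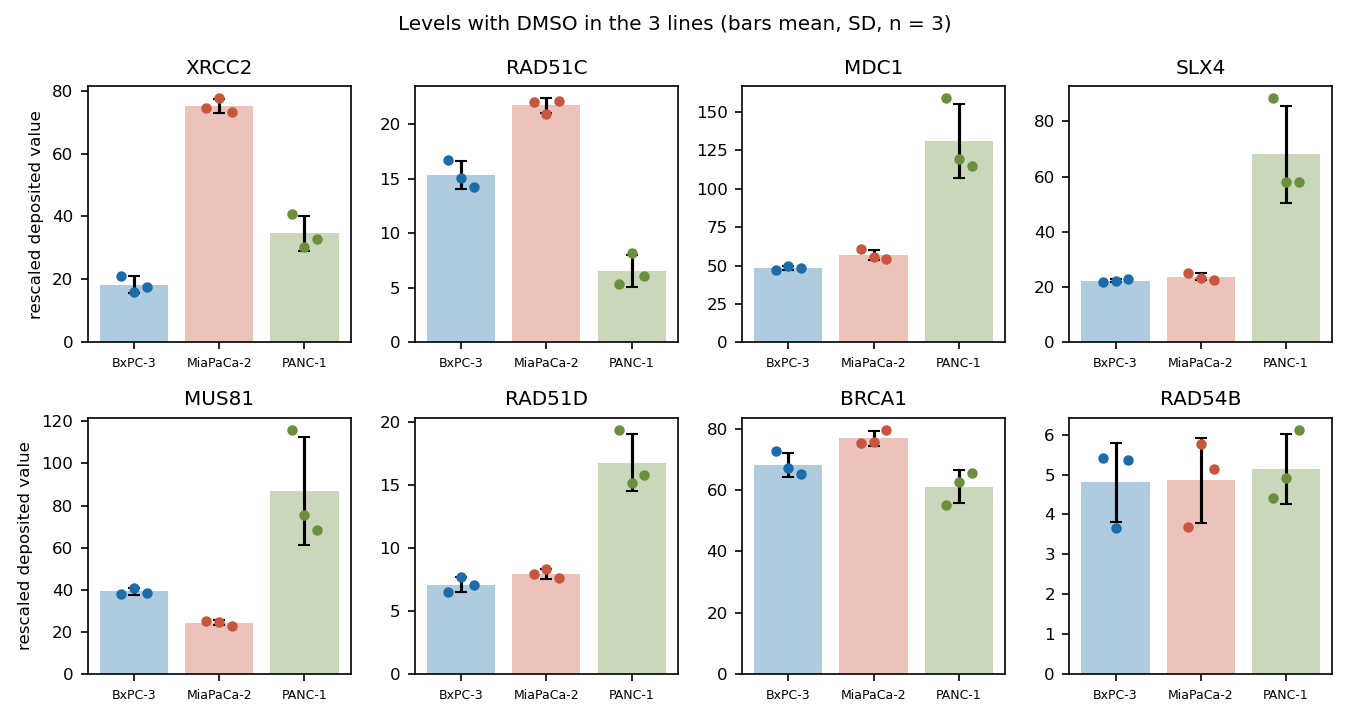
Rescaled deposited value with DMSO (linear axis from 0) of 8 repair genes in the 3 lines, bars the mean and whiskers the SD of 3 libraries, points the libraries. XRCC2 and RAD51C are highest in MiaPaCa-2, MDC1, SLX4, MUS81 and RAD51D in PANC-1, and RAD54B reads 4.81 to 5.15 on average in each line.

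The kinases bound by THZ1 were measured in the same libraries. CDK7 fell in BxPC-3 (-0.43 ± 0.14 (SE), adjusted p = 0.0155) and was at 0.02 in MiaPaCa-2 and 0.11 in PANC-1. CDK12 fell in BxPC-3 (-0.25) and MiaPaCa-2 (-0.40) and CDK13 was not called in any line. With PANC-1 DMSO replicate 1 left out, CDK13 was called higher in BxPC-3 (0.29, adjusted p = 0.00453). CDK12 is known for its part in the transcription of long genes, repair genes among them, so each member's length was set beside its change. From GENCODE v29 gene models on GRCh38, used for lengths only, the span was 6.18 kb for FANCG to 328 kb for FANCC. The 13 genes lower in both lines had a median span of 38.2 kb, the 8 that read higher in both on the deposited scale 60.8 kb and the other 23 members 73.3 kb. Each set held short and long genes. Those lower in both lines ran from EME1, at 8.26 kb, to BRCA1, at 126 kb, and those higher in both from FANCG to RBBP8, at 228 kb. Across the 44 members the change and log10 of the span had r = 0.27 in BxPC-3, 0.11 in MiaPaCa-2 and 0.43 in PANC-1, against -0.07, -0.19 and 0.10 over the 13555 tested genes with a length (88.3% of those tested). With the length of the transcript r was 0.0049, -0.15 and 0.02, against -0.20, -0.30 and 0.03. These are descriptions across genes of the same libraries. The PANC-1 values include DMSO replicate 1, which stood apart, and were not computed without it.

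Several members share a promoter region with a gene on the other strand. The 5 pairs given here are a list written by name, with earlier results of these data known, and they did not always move alike. NPAT, a regulator of histone genes whose start lies 158 bases inside ATM on the other strand in GENCODE v29 (GRCh38), fell in BxPC-3 (-1.94 ± 0.21 (SE), adjusted p = 7.96e-07) and MiaPaCa-2 (-1.88 ± 0.21 (SE), adjusted p = 1.49e-06) beside ATM at -0.02 and -0.10. ANKRD49, whose start lies 279 bases inside MRE11A, fell in the same lines (-1.58 ± 0.19 (SE), adjusted p = 2.14e-06, and -1.60 ± 0.19 (SE), adjusted p = 2.34e-06) beside MRE11A at 0.53 and 0.40. DCTN5, a dynactin subunit that starts 82 bases from PALB2, was at -0.03 in BxPC-3 without a call and fell in MiaPaCa-2 (-0.36 ± 0.07 (SE)), beside -1.52 and -1.67 for PALB2. NBR2, a neighbour of BRCA1, fell in both lines as BRCA1 did (-0.61 and -0.82), and HSCB, beside CHEK2, was not called. In PANC-1 none of these 5 neighbours was called. A search of GENCODE v29 starts gave further tested neighbours, among them NBR1 for BRCA1, ERC1 for RAD52, DNASE1 for SLX4 and MRPL27 for EME1. Their changes are not reported here, and the search did not list NBR2 or HSCB. The libraries were strand-specific per the labels, but whether the counting used strand is not given in the sources used here, so values of overlapping pairs are uncertain.

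Other repair genes gave the frame, to be read against the 18.9% lower and 40% higher of all genes in BxPC-3 and the 19.8% and 36.5% in MiaPaCa-2. Of 44 further genes of recombination and the Fanconi pathway 19 fell and 12 rose in BxPC-3 and 16 fell and 12 rose in MiaPaCa-2, on the deposited scale. Among them ERCC4, the crosslink nuclease held by SLX4, fell in both lines (-2.10 ± 0.19 (SE) and -1.87 ± 0.19 (SE)), and so did GEN1, a resolvase (-1.97 ± 0.18 (SE) and -1.99 ± 0.18 (SE)). SHFM1, the small BRCA2 partner DSS1, read higher on the deposited scale by 1.23 and 1.03 and was at 0.05 and -0.25 with ERCC totals. C1orf86, which encodes FAAP20, was likewise higher (1.15 and 0.93, and -0.02 and -0.35 with ERCC totals). Of 26 further checkpoint genes 15 fell and 4 rose in BxPC-3, and 13 fell and 5 rose in MiaPaCa-2. ETAA1, which activates ATR apart from TOPBP1, fell in both lines (-2.22 ± 0.19 (SE) and -2.21 ± 0.19 (SE)), as did RFWD3, an RPA ubiquitin ligase (-1.57 and -1.38). TIMELESS, of the fork protection complex, read higher (0.53 and 0.76, with ERCC totals -0.66 and -0.52), and PKMYT1, an inhibitory kinase of CDK1, was called in BxPC-3 (0.62, with ERCC totals -0.57) and not in MiaPaCa-2 (0.45). With PANC-1 DMSO replicate 1 left out, PKMYT1 was called higher in MiaPaCa-2 too (adjusted p = 9.24e-06).

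Of 13 end joining genes, which belong to the rival pathway, 3 fell and 6 rose in BxPC-3 and 3 fell and 7 rose in MiaPaCa-2. XRCC6, the KU70 subunit that caps ends, read higher by 1.12 and 1.04 and PARP1 by 1.00 and 0.98, with ERCC totals -0.07 and -0.25 and -0.18 and -0.31. POLL, a gap-filling polymerase, fell in both (-1.65 ± 0.25 (SE) and -1.43 ± 0.25 (SE)), and POLM fell in MiaPaCa-2 (-0.89). POLM in BxPC-3 (-0.31) was called lower once PANC-1 DMSO replicate 1 was left out (adjusted p = 0.00744). Of 35 excision and mismatch repair genes 9 fell and 11 rose in BxPC-3 and 8 and 13 in MiaPaCa-2, with ERCC6 at -1.60 and -2.15 and NEIL3 at -1.62 and -1.69 the lowest and UNG (1.01 and 0.82) and CETN2 (0.98 and 1.02) the highest on average. Of 36 replication and S phase genes 7 fell and 19 rose in BxPC-3 and 5 and 19 in MiaPaCa-2, so that the falls were near or under the share of all genes (18.9% and 19.8%). The named genes were TYMS at 0.97 and 0.92, TK1 at 0.91 and 0.99, GINS1 at -1.17 and -0.77 and MCM10 at -0.20 and -0.96. MCM10 was not called in BxPC-3 (adjusted p = 0.0762), but was with PANC-1 DMSO replicate 1 left out (adjusted p = 0.00506). No rise in these lists was called on all 3 scales, and in PANC-1 1 replication gene was called lower on the deposited scale and none of the other genes of these 5 lists was called. Leaving out PANC-1 DMSO replicate 1 changed this for named genes in PANC-1. GEN1, ETAA1 and NEIL3 were then called lower (1.35% of all genes), and SHFM1, PARP1 and XRCC6 higher (5.63%). List medians on the deposited scale were -0.18 and -0.14 for the further recombination genes, -0.48 and -0.34 for the checkpoint genes, 0.17 and 0.48 for end joining, 0.08 and 0.23 for excision and mismatch repair and 0.42 and 0.42 for replication, in BxPC-3 and MiaPaCa-2, beside 0.25 and 0.19 over all genes.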

How the data were processed

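RNA was measured in 18 libraries, 3 per line and treatment, made with a stranded kit for polyadenylated RNA with ERCC controls, per the labels' protocols. Alignment was with STAR to hg19, per the submitters' processing notes. How reads were counted, on which annotation, and where the libraries' divisors come from is not given in the sources used here. Values that the authors deposited for 17026 endogenous genes and 38 ERCC transcripts are a signal, in 18 library columns. Each library's signal was whole reads over a single integer. Undoing that division brought 100% of values to within 0.001 of an integer, 0.000112 at most, with 1 as the lowest read count. In every library 7070 to 7192 genes reached a deposited value of 1. The deposited log2 ratios and the score beside them were not used. No column went without a sample. The design had allowed for counts or normalised values, and the test planned for normalised values was used.

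Values were multiplied by 17.6795, filtered at 1 in at least 3 libraries (15354 genes) and tested as log2(value + 1) with limma-trend (limma 3.58.1, R 4.3.3), 6 group means, residual df 12 and Benjamini-Hochberg adjustment at 0.05. A value of 1 stands for 6.34 to 24.7 reads, without molecular identifiers. TMM (edgeR 4.0.16) and ERCC totals gave the other scales, and edgeR's quasi-likelihood test and DESeq2 1.42.0 on the recovered reads were alternatives. The limma, edgeR and DESeq2 fits were tried on simulated data that held no common shift and no outlying library. The limma fits on the TMM and ERCC scales were not simulated. The 3 libraries of a group differed by more than sampling noise. Values of every library are given for the 3 lowest and 3 highest members among those called in each line, the 3 with the smallest p of each F-test, and always BRCA1, BRCA2, ATM, ATR and CHEK1. Of each other list the 2 highest and 2 lowest genes are named, and all 5 genes of the list of neighbours. Promoters came from RefSeq (GRCh38.p14), where 38 of 44 members matched by symbol. The members and lists were chosen with earlier results of these data known.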

Additional observations from a re-analysis of the deposited data

Results flagged for a closer look

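Responses to THZ1 that differed between lines by a test of the difference itself are listed here. Between MiaPaCa-2 and BxPC-3 the response differed by 0.963 for RAD51C, 0.875 for RAD54L, 0.840 for MUS81, 0.668 for UBE2T and -0.556 for FANCC (log2, MiaPaCa-2 minus BxPC-3). RAD51C, a paralogue of the recombinase, fell in BxPC-3 and read higher in MiaPaCa-2 on the deposited scale only. RAD54L and MUS81 fell in BxPC-3 and were not called in MiaPaCa-2, and UBE2T fell in both.

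Over the 3 lines the F-test of the limma fit called a further 19 members. The adjusted p was SLX4 (5.18e-06), BLM (1.32e-05), XRCC2 (1.38e-05), PALB2 (2.77e-05), BRCA1 (0.000191), RAD52 (0.00024), EME1 (0.00077), EXO1 (0.00114), BRCA2 (0.00229), BARD1 (0.0192), RAD51D (0.0251) and TOPBP1 (0.04) among genes that fell in at least 1 of BxPC-3 and MiaPaCa-2. Among genes called higher on the deposited scale it was RPA3 (0.000386), FANCD2 (0.00252), FANCG (0.0068), RPA2 (0.0068), FANCA (0.0325), RBBP8 (0.0399) and RPA1 (0.0431). PANC-1 DMSO replicate 1 is part of each of these tests, and without it 36 of the 44 members were called (70.3% of all genes) in place of 24 (50.6%). The tests were on the deposited scale, and the order of the lines can turn with the scale. RBBP8 was at 0.57, 0.61 and 0.20 in BxPC-3, MiaPaCa-2 and PANC-1, and at -0.61, -0.66 and -0.08 with ERCC totals.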

How the results depend on the processing

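Every member's fall in BxPC-3 and MiaPaCa-2 kept its call on the TMM and ERCC scales, and the rises depended on the scale. Both scales shift changes down in these lines, so a fall could hardly lose its call. Over all genes 2907 of 2908 falls in BxPC-3 and 3040 of 3042 in MiaPaCa-2 kept theirs. The size of the shift follows from the scaling itself, while the cause of each change of call was not tested. The members with the lowest values after THZ1, EME1 and RAD52, were called in BxPC-3 and MiaPaCa-2, while RAD54B had no call on the deposited scale and was called lower in both with TMM and ERCC totals. With ERCC totals members were called as follows: 41 lower and 0 higher in BxPC-3, 44 lower and 0 higher in MiaPaCa-2, 10 lower in PANC-1. Over all genes the calls were 9164 lower and 199 higher in BxPC-3, 11452 lower and 211 higher in MiaPaCa-2, 2856 lower and 5 higher in PANC-1, and 1 member differed between MiaPaCa-2 and BxPC-3. The sign of the log2 change turned in BxPC-3 RAD51AP1 -0.73, XRCC3 -1.17, MRE11A -0.63, NBN -0.95, RBBP8 -0.61, BRIP1 -0.90, FANCA -0.36, FANCC -0.67, FANCG -0.65, FANCL -0.74, FANCD2 -0.80, FANCI -0.85, ATR -1.12, CHEK1 -0.84, CLSPN -1.09, RNF168 -0.69, RPA1 -0.31, RPA2 -0.68, RPA3 -0.46, C1orf86 -0.017, PKMYT1 -0.57, TIMELESS -0.66, PARP1 -0.18, XRCC6 -0.073, UNG -0.16, CETN2 -0.17, TYMS -0.19, TK1 -0.27 and CDK13 -0.88, and in MiaPaCa-2 RAD51AP1 -1.11, RAD51C -0.94, RAD54L -1.14, MRE11A -0.85, RAD50 -1.01, NBN -0.89, RBBP8 -0.66, MUS81 -1.21, FANCA -0.91, FANCG -0.80, FANCL -1.22, FANCD2 -1.01, FANCI -1.02, CHEK1 -0.85, CHEK2 -1.11, MDC1 -1.13, TP53BP1 -1.12, RNF168 -0.82, RPA1 -0.48, RPA2 -0.95, RPA3 -0.41, C1orf86 -0.35, SHFM1 -0.25, PKMYT1 -0.83, TIMELESS -0.52, PARP1 -0.31, XRCC6 -0.25, UNG -0.45, CETN2 -0.24, TYMS -0.35, TK1 -0.30 and CDK7 -1.25. With equal library sums the members' calls were 31 lower and 0 higher in BxPC-3, 33 lower and 0 higher in MiaPaCa-2, 1 lower in PANC-1. Over all genes they were 6607 lower and 1416 higher in BxPC-3, 6627 lower and 1437 higher in MiaPaCa-2, 160 lower and 13 higher in PANC-1, and 8 members differed between those lines. The sign turned in BxPC-3 RAD51AP1 -0.28, XRCC3 -0.72, MRE11A -0.18, RBBP8 -0.15, FANCC -0.23, FANCG -0.19, FANCD2 -0.35, FANCI -0.39, CHEK1 -0.39, CLSPN -0.64, RNF168 -0.25, RPA2 -0.23, RPA3 -0.013, PKMYT1 -0.11 and TIMELESS -0.20, and in MiaPaCa-2 RAD51AP1 -0.49, RAD51C -0.31, RAD54L -0.51, RAD50 -0.37, RBBP8 -0.03, MUS81 -0.58, FANCG -0.17, FANCL -0.61, FANCD2 -0.38, CHEK1 -0.22, CHEK2 -0.48, MDC1 -0.50, TP53BP1 -0.48, RNF168 -0.19, RPA2 -0.32 and CDK7 -0.62. TMM gave 3 higher in BxPC-3, 3 higher in MiaPaCa-2 among the members and 4578 lower and 3429 higher in BxPC-3, 15 lower and 7 higher in PANC-1 among all genes, with 8 members that differed between those lines. By the same rule it turned in BxPC-3 XRCC3 -0.38, FANCD2 -0.015, FANCI -0.051, CHEK1 -0.051 and CLSPN -0.30. Members called on neither scale also turned with TMM, among them NBN, BRIP1, FANCL and ATR in BxPC-3.

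On recovered reads edgeR gave 4 higher in BxPC-3, 4 higher in MiaPaCa-2 among the members, 4391 lower in BxPC-3, 12 lower and 7 higher in PANC-1 among all genes, 9 differences and CLSPN at -0.24 in BxPC-3. DESeq2 gave 5 higher in BxPC-3, 4 higher in MiaPaCa-2, 1 lower in PANC-1 among the members, 338 lower and 353 higher in PANC-1 among all genes, 9 differences and CLSPN at -0.19. Fitting the compared groups alone gave 16 higher in MiaPaCa-2 among the members and 0 lower and 0 higher in PANC-1 among all genes. A pseudocount of 5 gave 67 lower and 78 higher in PANC-1 among all genes. No filter gave 17 lower and 9 higher in PANC-1 among all genes. No trend gave 16 lower and 5 higher in PANC-1 among all genes. A filter of 5 gave 98 higher in PANC-1 among all genes. With the replicate number as a block, 10 lower and 2 higher in PANC-1 among all genes were called, and RAD51C lost its call in MiaPaCa-2 (adjusted p = 0.062), the 1 member call that the block changed. The residuals of same-numbered libraries correlated at 0.086, 0.022 and -0.0031 in BxPC-3, 0.14, 0.067 and 0.017 in MiaPaCa-2 and 0.45, 0.30 and -0.031 in PANC-1, so the numbers were not taken to pair the libraries. Leaving out 1 library at a time gave ranges of 8 to 16 for members called higher in MiaPaCa-2, 0 to 4 for members lower in PANC-1, 4 to 1735 for all genes called lower in PANC-1, 0 to 4 for members called higher in PANC-1, 1 to 1605 for all genes called higher in PANC-1, 5 to 18 for members that differed between MiaPaCa-2 and BxPC-3, 0 to 2 for members lower on all 3 scales in PANC-1 and -0.36 to 0.24 for FANCA in PANC-1. In PANC-1 the lowest counts over all genes came without THZ1 replicate 3 and the highest without DMSO replicate 3, and the 16 and 18 members of the other lines came without PANC-1 DMSO replicate 1.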
